A study of Mus musculus with 6 samples.

Results

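The imprinted genes examined here were 37 mouse genes known to be expressed mainly from the allele inherited from 1 parent in at least some tissues. They were given as a list of names and found on the arrays by the RefSeq transcript printed for each non-control probe. Of the 37, 35 genes had at least 1 matched probe (58 probes), out of 20887 gene symbols matched on the array. H19 and Rian, both noncoding RNAs, had no probe matched in this way and were not analysed here. Of the 35, 31 genes had a probe that passed the filter on dim signals, which asked that the scanner call Cy5 well above background for at least 3 arrays out of 6, of either group.

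Imprinted genes lie in clusters that share a control region methylated on 1 parental copy. Many of them act on growth: several paternally expressed members promote it and several maternally expressed members restrain it, with the placenta and fetus as the best studied settings. After birth a subset keeps being transcribed in adult stem and progenitor cells, where it has been linked to quiescence in several mouse tissues. An array measures the RNA of both parental copies together, so nothing here speaks to which copy was transcribed.

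The cells were sorted from the mammary glands of mice (strain C57/B6, virgin) that carried the lgr5-egfp-ires-creert2 allele, a reporter that places EGFP and a tamoxifen-inducible Cre under the control of Lgr5, a receptor for R-spondins and a marker of several epithelial stem cells. All 6 samples came from lineage-negative cells with CD24 and high CD29, the surface profile of the basal mammary compartment. The Lgr5-positive group was the GFP-positive fraction (3 arrays) and the Lgr5-negative group the GFP-negative fraction (3 arrays) of that gate, so both groups carried the reporter allele. Age and the pooling of animals are not given in the sources used here. Each sample was labelled with Cy5 and hybridised against Universal Mouse Reference RNA (Cy3), which pools 11 cell lines, with no dye swap, and values below are log2 ratios of Cy5 to Cy3. A ratio can be compared between arrays for a probe but not between genes. In sorted populations, fewer cells of a type and less RNA per cell cannot be told apart.

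Lgr5 itself had log2 ratios of 4.24, 5.36 and 5.01 on the Lgr5-positive arrays, against 2.84, 4.04 and 3.31 on the Lgr5-negative arrays. The basal markers of the gate were present throughout: all 11 listed genes were well above background on every array, and their summed linear ratio was 246 to 320 in Lgr5-positive samples and 175 to 226 in Lgr5-negative samples. Other cell types were not absent from either fraction. The 11 tested of 12 endothelial markers summed to 35.5 to 108 in Lgr5-positive samples and 202 to 308 in Lgr5-negative samples, and the 10 hormone-sensing luminal markers to 20.3 to 25.8 in Lgr5-positive samples and 38.5 to 49.6 in Lgr5-negative samples. Such sums weigh genes with high ratios most. They can be compared between groups within a list but not between lists, since each ratio depends on the reference RNA. For Tie1 among the endothelial markers and Tnfsf11 among the luminal ones, no Lgr5-positive array had a signal well above background. Median Cy5 signals were 137, 161 and 169 on the Lgr5-positive arrays and 200, 208 and 278 on the Lgr5-negative arrays, over local backgrounds of 64 to 76, and 50.9 to 74.4% of probes were well above background. Arrays with the same replicate number lay next to each other on the slide, and across all genes their deviations from the group means correlated at 0.810, 0.819 and 0.675 for numbers 1 to 3, against -0.67 to -0.16 for unlike numbers. The submitters' design text describes a pair of samples, so each result is given for the groups alone and with the replicate number as a block.

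The sequences that bear on the results come from RefSeq, build GRCm38.p6, and are shown here because the results turn most on the genes of 2 clusters. Slc22a18 and Phlda2 are adjacent, maternally expressed genes of the Kcnq1 cluster with unlike values, and Mirg is a maternally expressed microRNA host of the Dlk1 to Dio3 cluster. Each run holds 250 bases before and 50 after the annotated start, with the CG dinucleotides, the sites of CpG methylation, in capitals.
Slc22a18 promoter, chr7:143473539-143473838, plus strand: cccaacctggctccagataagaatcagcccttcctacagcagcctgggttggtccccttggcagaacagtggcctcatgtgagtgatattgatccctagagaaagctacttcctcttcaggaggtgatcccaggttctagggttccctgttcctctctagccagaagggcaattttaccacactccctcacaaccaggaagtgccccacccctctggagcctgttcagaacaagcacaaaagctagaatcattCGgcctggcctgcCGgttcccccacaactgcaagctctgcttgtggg
Phlda2 promoter, chr7:143502475-143502774, minus strand: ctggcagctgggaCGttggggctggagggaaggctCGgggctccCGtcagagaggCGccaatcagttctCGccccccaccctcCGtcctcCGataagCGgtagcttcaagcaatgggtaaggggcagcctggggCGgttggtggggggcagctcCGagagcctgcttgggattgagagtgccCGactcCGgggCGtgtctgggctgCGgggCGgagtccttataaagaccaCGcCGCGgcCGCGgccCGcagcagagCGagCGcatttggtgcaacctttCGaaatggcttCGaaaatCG
Mirg promoter, chr12:109734731-109735030, plus strand: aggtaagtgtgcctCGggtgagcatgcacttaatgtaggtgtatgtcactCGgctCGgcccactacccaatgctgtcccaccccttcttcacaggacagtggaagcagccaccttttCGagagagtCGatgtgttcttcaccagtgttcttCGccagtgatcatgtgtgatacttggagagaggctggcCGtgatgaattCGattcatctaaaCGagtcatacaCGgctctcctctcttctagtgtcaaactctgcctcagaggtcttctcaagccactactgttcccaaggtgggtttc

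The Slc22a18 window held 2 CpG sites, the Phlda2 window 26 and the Mirg window 10. Among all 32851 promoter windows of the table the median was 7, 23.3% held 2 or fewer, and 16.9% held 26 or more. Across the 47 windows of the 31 members with an entry, the median was 15. TGCCGC, the hexamer bound by ZFP57 when it is methylated, was searched on both strands and occurred in 12 of those 47 windows (25.5%), against 11.6% of all windows. The hexamer itself holds a CG, the member windows held more CpG sites than all windows, and overlapping windows of Mest were counted separately. Whether the shares differ at like CpG content was not tested. None of the 3 printed windows holds it. No promoter entry was used for Kcnq1, Sgce, H19, Peg10, Rtl1 or Impact.

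The annotated span of Mirg holds 19 mature microRNAs with 18 different seeds. The microRNAs themselves were not measured on these arrays. A selection is printed with bases 2 to 8, the seed that pairs with targets, in capitals. The first 2 share the seed GGUUGCC, and each of the others printed has its own seed. Some of these are alike, as AUCAUAC of miR-154-3p and AUAAUAC of miR-369-3p are.
miR-453: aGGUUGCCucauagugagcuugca
miR-496a-5p: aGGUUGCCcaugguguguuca
miR-410-3p: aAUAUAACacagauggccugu
miR-377-3p: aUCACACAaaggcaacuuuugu
miR-154-3p: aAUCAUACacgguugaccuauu
miR-409-3p: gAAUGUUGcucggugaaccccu
miR-369-3p: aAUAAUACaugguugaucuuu

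Most imprinted genes showed little difference between Lgr5-positive and Lgr5-negative cells. With the groups alone (limma, Benjamini-Hochberg over all genes), 0 of the 31 tested members passed an adjusted p of 0.05, where 0.612% of the 15680 tested genes did. Of the 31, 3 had an unadjusted p under 0.05 (8.2% of all genes). With the replicate block, Slc22a18 was lower in Lgr5-positive cells (5.61% of all genes passed in that direction) and Mirg was higher (2.1%), where 7.72% of all genes passed either way. Kcnq1 also passed as lower, but it entered the test only through the Lgr5-negative arrays, on which it was bright, so its call supports nothing here. The median log2 fold change, Lgr5-positive minus Lgr5-negative, was -0.03 over the members and 0.01 over all genes, and the median size was 0.149 for members and 0.156 for all genes. Slc22a18 and Kcnq1 were the members with a change larger than 1 on the log2 scale by their brightest probe, as were 4.36% of all genes.

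**Figure D1:**
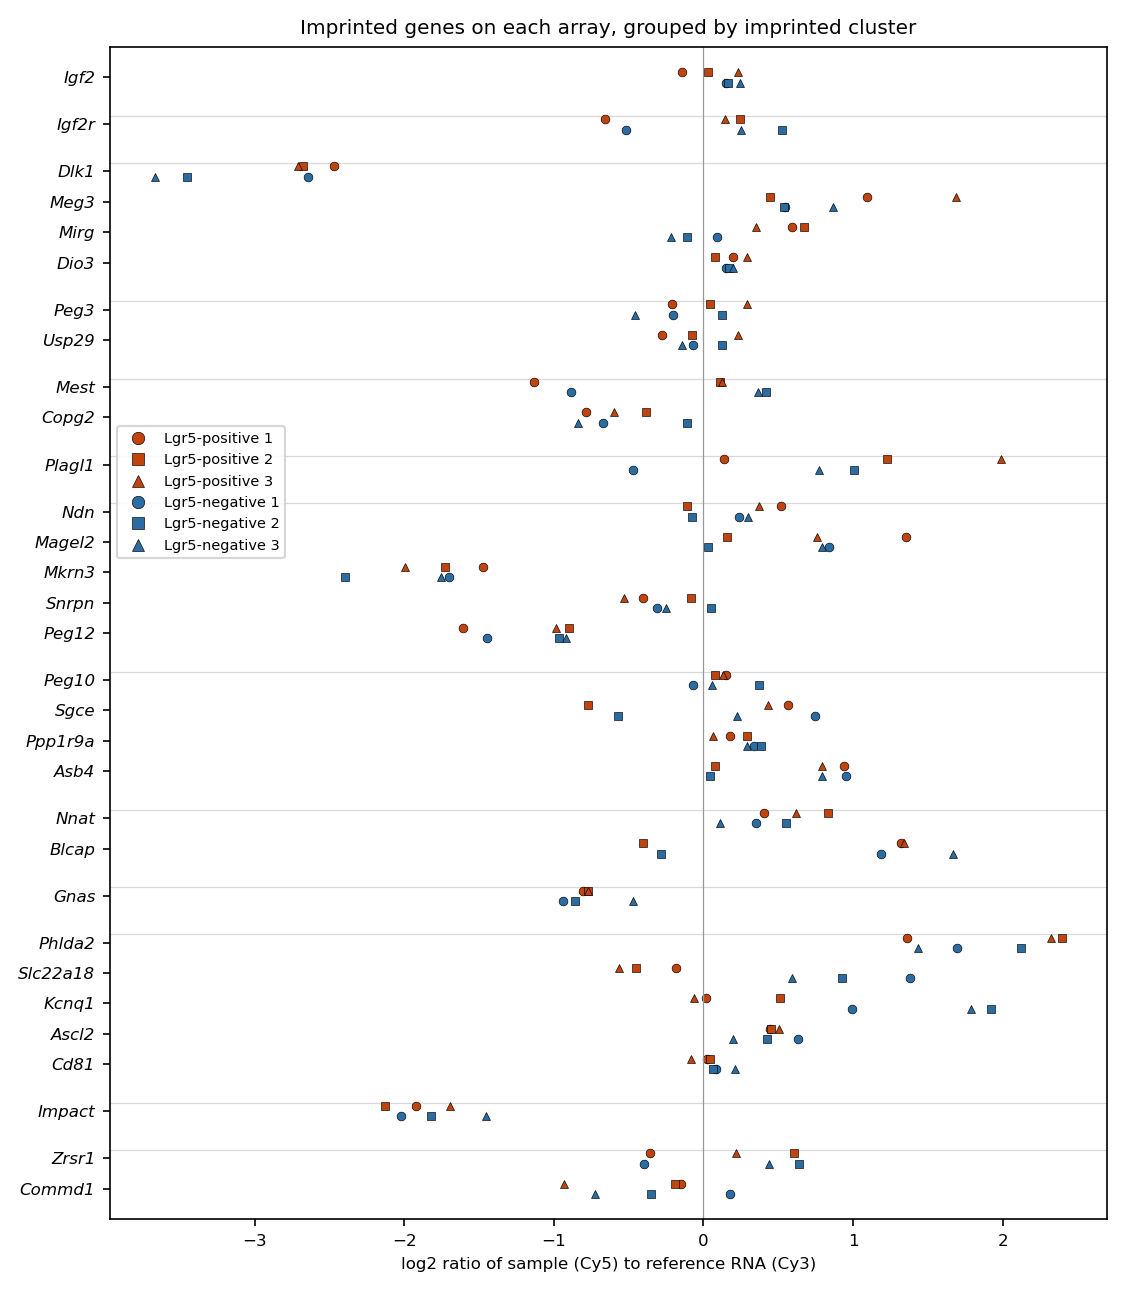
Log2 ratio of sample (Cy5) to reference RNA (Cy3) for the 31 tested imprinted genes on each of the 6 arrays, with Lgr5-positive arrays (orange, upper row of each gene) and Lgr5-negative arrays (blue, lower row), and a marker shape for each replicate number. Rules separate the clusters; the colours part completely for Mirg, Slc22a18, Kcnq1 and, by a narrow margin, Cd81.

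Groups did not overlap for 4 members, Kcnq1 among them, where 12.2% of all genes showed no overlap. Mirg was the single member higher without overlap (4.06% of all genes), and Slc22a18, Kcnq1 and Cd81 were lower (8.14%). A difference in the same direction in all 3 same-number pairs was found for 12 members, 4 higher (22.5% of all genes) and 8 lower (21.8%), which is 38.7% of the 31 against 44.3% of all genes. By the parental allele known to be expressed, Mirg and Slc22a18 were among the 12 tested maternally expressed genes. Kcnq1 is maternally expressed too, but its call supports nothing here. None of the 17 tested paternally expressed genes and neither of the 2 with mixed expression passed with the block, where 7.72% of all genes did. Whether the allele classes differ was not tested.

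**Figure D2:**
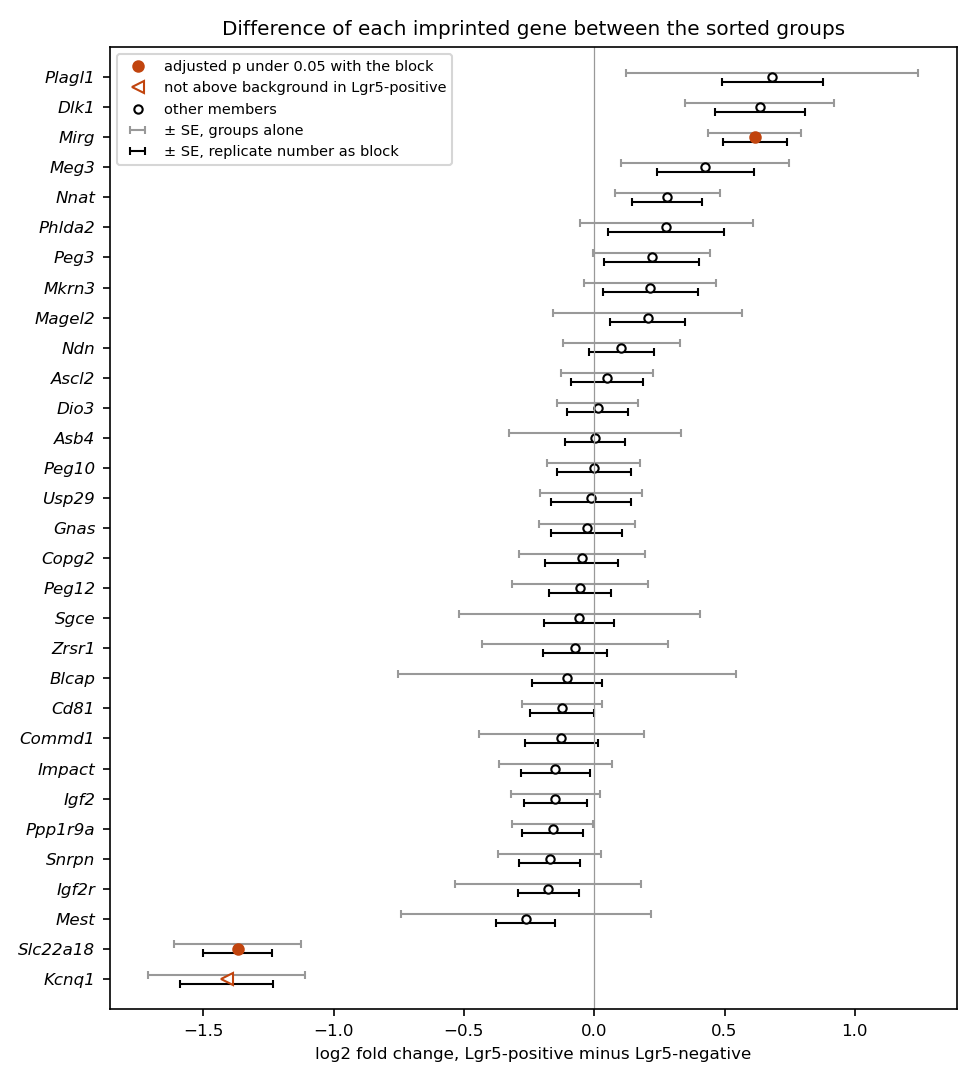
Log2 fold change of each tested imprinted gene, Lgr5-positive minus Lgr5-negative, with the standard error of the groups alone (grey) and of the blocked fit (black). Filled points are Mirg at 0.62 and Slc22a18 at -1.37, which passed an adjusted p of 0.05 with the block; the open triangle marks the fitted value of Kcnq1, for which the data give only a bound, and the block narrows the error most for genes such as Blcap and Mest.

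By each gene's brightest probe, the 2 largest differences among the members were in the Kcnq1 cluster. In most tissues it is governed by Kcnq1ot1, an antisense noncoding RNA made from the paternal copy that silences neighbours on that copy. Slc22a18, a transporter of the organic cation family, had log2 ratios of -0.18, -0.45 and -0.56 in Lgr5-positive cells, against 1.38, 0.93 and 0.59 in Lgr5-negative cells. Every Lgr5-positive array lay below every Lgr5-negative array, and the probe was well above background on all 6. Its raw Cy5 signals were 188, 176 and 171 on the Lgr5-positive arrays and 666, 581 and 577 on the Lgr5-negative arrays. The log2 fold change was -1.37 with SE 0.24, a 2.58-fold lower level, with a limma adjusted p of 0.081 for the groups alone. With the block the SE was 0.13 and the limma adjusted p 0.0025. The pairs differed by -1.57, -1.38 and -1.15, and the blocked call held without any of the 3 pairs.

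Kcnq1, the pore-forming subunit of a voltage-gated potassium channel, had log2 ratios of 0.02, 0.51 and -0.06 in Lgr5-positive cells, against 0.99, 1.92 and 1.79 in Lgr5-negative cells. Its probe was well above background on 0 of the 3 Lgr5-positive arrays and on 3 of the 3 Lgr5-negative arrays, so it passed the filter only through the group in which it was high. Raw Cy5 signals were 86.5, 131 and 115 on the Lgr5-positive arrays and 240, 412.5 and 482 on the Lgr5-negative arrays. By group means, the level was at least 2.53-fold lower in Lgr5-positive cells. This bound takes the Lgr5-positive arrays at the higher of the probe's own signal and the dimmest signal called well above background. The probe's own signal was the higher here, so the bound is the difference of the group means and leaves out the spread between arrays. The pairs differed by -0.97, -1.41 and -1.85 in log2 ratio. The limma adjusted p was 0.133 for the groups alone, or 0.025 without the Lgr5-negative array numbered 1. It was 0.0061 with the block, or 0.067 without the pair numbered 2. Since the filter selected this gene on its Lgr5-negative signal, these p-values are given as a record of the fit and not as evidence.

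The neighbours of Slc22a18 and Kcnq1 had differences nearer to 0. Phlda2, a pleckstrin-homology protein that restrains placental growth, had log2 ratios of 1.36, 2.39 and 2.32 in Lgr5-positive cells and 1.69, 2.13 and 1.43 in Lgr5-negative cells, and the groups overlapped. Its log2 fold change was 0.28 with SE 0.33 for the groups alone. Ascl2, a basic helix-loop-helix factor known in the placenta and in intestinal stem cells, differed by 0.05 with SE 0.18. Cd81, a tetraspanin of the cell surface and the brightest member of the cluster, had log2 ratios of 0.03, 0.05 and -0.08 in Lgr5-positive cells and 0.08, 0.07 and 0.21 in Lgr5-negative cells. The Cd81 arrays did not overlap, yet the log2 fold change was only -0.12 with SE 0.15 and a limma adjusted p of 0.631 with the block.

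Listed imprinted genes of the same cluster that are not among the 37 had differences from -0.33 to 0.39, smaller than that of Slc22a18. The median size over all genes was 0.156. Kcnq1ot1 had a log2 fold change of 0.25, and Cdkn1c, the cyclin-dependent kinase inhibitor p57 that lies between Kcnq1 and Slc22a18 in gene order, had one of 0.01 with SE 0.31. Tspan32 differed by 0.39, Tssc4 by 0.03, Nap1l4 by 0.13, Osbpl5 by -0.21 and Tnfrsf23 by -0.33. These values are for the brightest probe of each gene. A dimmer probe gave 0.09 for Tspan32, -0.18 for Nap1l4 and 0.03 for Tnfrsf23. By the brightest probe, none of these 7 genes passed the threshold in either fit. The closest was Tspan32 with a limma adjusted p of 0.100 with the block.

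**Figure D3:**
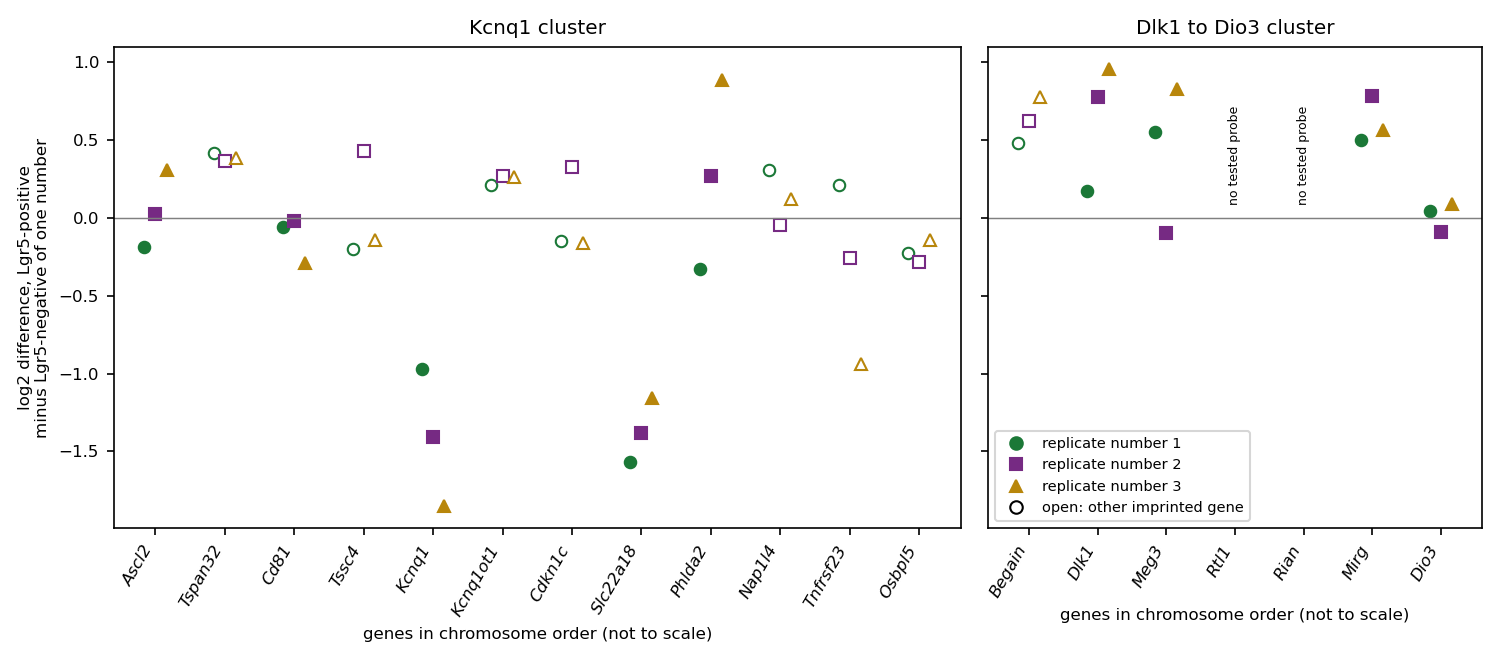
Log2 difference between the Lgr5-positive and the Lgr5-negative array of each replicate number for genes in chromosome order in the Kcnq1 cluster (left) and the Dlk1 to Dio3 cluster (right); filled markers are members and open markers other listed imprinted genes. Slc22a18 lies between -1.57 and -1.15, and Kcnq1, not above background on the Lgr5-positive arrays, also lies below 0 in every pair. Between them in gene order are Kcnq1ot1 (0.21 to 0.27) and Cdkn1c (-0.16 to 0.33). Begain, Dlk1 and Mirg lie above 0 in every pair.

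Endothelial and hormone-sensing luminal markers were lower in Lgr5-positive cells, as Slc22a18 and Kcnq1 were. Most pericyte markers (7 of 8) and fibroblast markers (8 of 10) also lay below 0, with median log2 fold changes of -0.50 and -0.30. The leukocyte markers had a median of 0.00, with 5 above 0 and 4 below, Cd74 lowest at -1.04. The adipocyte markers had a median of 0.02, with 3 above 0 and 1 below, Fabp4 at -0.86. Glial markers had a median of -0.15, and luminal progenitor and milk markers one of -0.03. Of the 11 tested endothelial markers, with a median log2 fold change of -2.15, 8 were lower in Lgr5-positive cells with the block (5.61% of all genes). Of these, 3 (Egfl7, Plvap and Tie1) were also lower for the groups alone (0.587%). Tie1 is in both counts but, like Kcnq1, entered the test only through the Lgr5-negative arrays, so its call supports nothing here. Of the 10 hormone-sensing luminal markers 7 were lower and 1 higher with the block (5.61% and 2.1% of all genes), with a median of -1.18. Tnfsf11 is among the 7 lower and, like Tie1, its call supports nothing here. The 11 basal markers had a median of 0.36, and 3 of them were higher with the block (2.1% of all genes). The part of these cell types in the Slc22a18 and Kcnq1 differences was not tested.

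In the Dlk1 to Dio3 cluster the paternal copy encodes Dlk1, Rtl1 and Dio3 and the maternal copy gives rise to the noncoding RNAs Meg3, Rian and Mirg. Mirg had log2 ratios of 0.59, 0.67 and 0.35 in Lgr5-positive cells, against 0.09, -0.11 and -0.22 in Lgr5-negative cells. Every Lgr5-positive array lay above every Lgr5-negative array. The log2 fold change was 0.62 with SE 0.18, a 1.53-fold difference, and the limma adjusted p was 0.294 for the groups alone. With the block the SE was 0.12 and the limma adjusted p 0.031, and the pairs differed by 0.50, 0.78 and 0.56. The blocked call was lost without the pair numbered 2 (limma adjusted p of 0.220) and without the pair numbered 3 (0.065). Centring each array on its median in place of loess put Mirg at 0.26 and all genes at a median of -0.29, and also ended the call (limma adjusted p of 0.136). Raw Cy5 signals were 348, 503 and 470.5 on the Lgr5-positive arrays and 464, 483.5 and 576 on the Lgr5-negative arrays, so they overlapped, and the difference appears relative to the signals of the other genes on each array. This was the single Mirg probe.

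Dlk1, a transmembrane protein with epidermal growth factor repeats that restrains adipocyte differentiation, was far below the reference RNA on every array. Its brightest probe had log2 ratios of -2.47, -2.68 and -2.71 in Lgr5-positive cells and -2.64, -3.45 and -3.66 in Lgr5-negative cells. The groups overlapped through the first Lgr5-negative array. The log2 fold change was 0.64 with SE 0.29, and the limma adjusted p was 0.681 for the groups alone and 0.080 with the block. The other Dlk1 probe gave 0.32. Without the pair numbered 1 the blocked log2 fold change was 0.87 with a limma adjusted p of 0.013.

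Meg3, the long noncoding RNA at the start of the maternal transcripts, had log2 ratios of 1.09, 0.45 and 1.69 in Lgr5-positive cells and 0.54, 0.54 and 0.86 in Lgr5-negative cells, with a log2 fold change of 0.43, SE 0.32. For the 2 other Meg3 probes, no array had a signal well above background. Dio3, which inactivates thyroid hormone, differed by 0.01 with SE 0.15. Rtl1, a gene derived from a retrotransposon, was well above background on 0 of 6 arrays. Begain, at the edge of the cluster, is an imprinted gene outside the 37 and had log2 ratios of 1.68, 1.82 and 1.45 in Lgr5-positive cells, against 1.20, 1.20 and 0.67 in Lgr5-negative cells. Its log2 fold change was 0.63 with SE 0.22, and the limma adjusted p was 0.425 for the groups alone and 0.029 with the block.

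The growth factor and receptor members did not differ beyond their spread. Igf2, a fetal growth factor, had log2 ratios of -0.14, 0.03 and 0.23 in Lgr5-positive cells and 0.15, 0.17 and 0.25 in Lgr5-negative cells. Its probe was well above background on 2 Lgr5-positive arrays and 1 Lgr5-negative array, so the signal was close to the detection limit. Igf2r, the receptor that clears IGF2 and carries mannose 6-phosphate enzymes, had log2 ratios of -0.66, 0.25 and 0.14 in Lgr5-positive cells and -0.52, 0.53 and 0.25 in Lgr5-negative cells. Each Lgr5-positive array of Igf2r lay below its Lgr5-negative partner, and the log2 fold change was -0.18 with a blocked SE of 0.12 and a limma adjusted p of 0.454. Grb10, an adaptor that inhibits insulin and IGF1 receptor signalling, was well above background on 1 Lgr5-positive and 1 Lgr5-negative array and was not tested.

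Plagl1, a zinc finger factor that arrests the cell cycle, had the highest log2 fold change among the members. Its brightest probe had log2 ratios of 0.14, 1.23 and 1.99 in Lgr5-positive cells and -0.47, 1.00 and 0.77 in Lgr5-negative cells. The arrays overlapped, since the Lgr5-positive array numbered 1 lay below the Lgr5-negative arrays numbered 2 and 3. The lowest array of each group carried replicate number 1. The log2 fold change was 0.68 with SE 0.56 for the groups alone, and the block reduced the SE to 0.19 with a limma adjusted p of 0.093. A further probe gave 0.79, and the 2 remaining probes gave 0.10 and 0.02.

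Asb4, an ankyrin repeat and SOCS box protein in the Peg10 and Sgce cluster, also gave unlike values by probe. Its brightest probe, which stands for the gene, had log2 ratios of 0.94, 0.08 and 0.79 in Lgr5-positive cells and 0.96, 0.05 and 0.80 in Lgr5-negative cells, with no pair differing by more than 0.03. The other probe had log2 ratios of 0.67, 1.91 and 1.08 in Lgr5-positive cells and 1.57, 3.59 and 3.49 in Lgr5-negative cells. For that probe the pairs differed by -0.89, -1.68 and -2.41 and the log2 fold change was -1.66, with a limma adjusted p over all probes of 0.743 for the groups alone and 0.012 with the block. Among the 34528 probes tested 0.101% passed for the groups alone and 4.41% with the block. Its raw Cy5 signals were 127, 283 and 177.5 on the Lgr5-positive arrays and 283, 1278 and 1727 on the Lgr5-negative arrays, and the reference RNA was well above background for it on 4 of the 6 arrays.

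**Figure D4:**
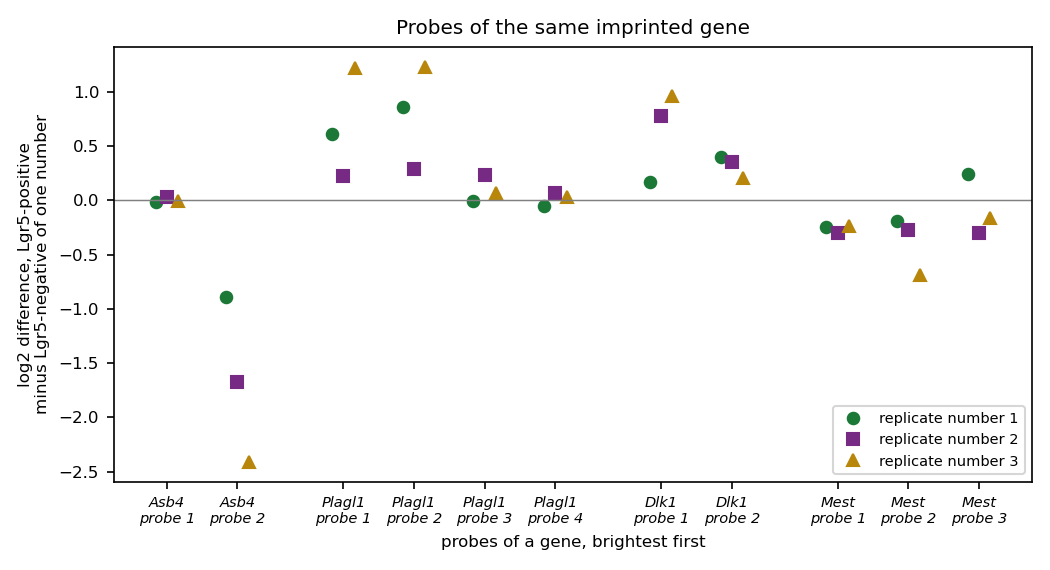
Log2 difference between the Lgr5-positive and the Lgr5-negative array of each replicate number, for every tested probe of Asb4, Plagl1, Dlk1 and Mest, ordered by brightness within a gene. The first Asb4 probe stays near 0 while the second lies at -0.89 to -2.41, and the first 2 Plagl1 probes lie above the other 2 in pairs 1 and 3.

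Mest, a protein of the alpha/beta hydrolase fold named for its expression in mesoderm, had log2 ratios of -1.13, 0.11 and 0.12 in Lgr5-positive cells and -0.89, 0.42 and 0.36 in Lgr5-negative cells. The pairs differed by -0.24, -0.30 and -0.24, which did not pass the threshold (limma adjusted p of 0.249 with the block), and its 3 tested probes gave -0.38 to -0.07. Copg2, a coatomer subunit whose gene overlaps Mest in the annotation and which was brighter, had log2 ratios of -0.79, -0.38 and -0.60 in Lgr5-positive cells and -0.67, -0.11 and -0.84 in Lgr5-negative cells. The Copg2 groups overlapped and the log2 fold change was -0.05 with SE 0.24.

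Several members varied more between replicate numbers than between the sorted groups. Blcap, a small membrane protein whose gene contains Nnat, had log2 ratios of 1.32, -0.41 and 1.34 in Lgr5-positive cells and 1.18, -0.28 and 1.67 in Lgr5-negative cells. Sgce, the epsilon-sarcoglycan gene mutated in human myoclonus dystonia, had log2 ratios of 0.56, -0.77 and 0.43 in Lgr5-positive cells and 0.75, -0.57 and 0.23 in Lgr5-negative cells. For both genes the arrays numbered 2 were the low ones in each group. Magel2, a MAGE family protein of the Snrpn and Ndn cluster, had log2 ratios of 1.35, 0.16 and 0.76 in Lgr5-positive cells and 0.84, 0.03 and 0.79 in Lgr5-negative cells, again lowest on number 2. The 4 genes Mest, Plagl1, Sgce and Blcap, ranged over more than 1 log2 unit within each group. In 20 of 31 members no pair differed by more than 0.5. The lowest array carried the same replicate number in both groups for 18 of 31 members (58.1%), against 68.4% of all tested genes.

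The remaining brightest members of their clusters showed overlapping groups. Gnas, the stimulatory G protein alpha subunit, had log2 ratios of -0.81, -0.77 and -0.77 in Lgr5-positive cells and -0.94, -0.86 and -0.47 in Lgr5-negative cells, and its 3 tested probes gave log2 fold changes of -0.06 to 0.06. Usp29, a ubiquitin protease beside Peg3, had log2 ratios of -0.28, -0.08 and 0.23 in Lgr5-positive cells and -0.07, 0.12 and -0.14 in Lgr5-negative cells. Impact, a regulator of translation through GCN2, had log2 ratios of -1.92, -2.13 and -1.69 in Lgr5-positive cells and -2.02, -1.82 and -1.45 in Lgr5-negative cells. Commd1, a copper-handling protein whose gene contains Zrsr1, had log2 ratios of -0.15, -0.19 and -0.93 in Lgr5-positive cells and 0.18, -0.35 and -0.72 in Lgr5-negative cells. The log2 fold changes of Usp29, Impact and Commd1 were -0.01, -0.15 and -0.13.

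The other tested members had log2 fold changes from -0.17 to 0.28, with adjusted p-values of 0.294 or more with the block in limma. Of the Snrpn and Ndn cluster, Ndn (a MAGE family growth suppressor) differed by 0.10, Mkrn3 (a ring finger ubiquitin ligase) by 0.22, Snrpn (a spliceosome protein) by -0.17 and Peg12 by -0.05. Peg3, a zinc finger protein, differed by 0.22, Peg10, derived from a retrotransposon, by -0.00, and Ppp1r9a, the actin-binding neurabin, by -0.16. Nnat, a small membrane protein of neurons and endocrine cells, differed by 0.28, with 0.29 for its second probe, and Zrsr1, related to the splicing factor U2AF1, by -0.07. Zim1 was well above background on 0 of 6 arrays and Nap1l5 on 1 Lgr5-negative array, so neither was tested.

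A list of 37 further imprinted genes was examined as well. Of the 27 tested, 0 passed for the groups alone (0.612% of all genes), and 2 had an unadjusted p under 0.05 in limma (8.2%). With the block 2 passed, Begain higher and Slc38a4 lower, beside the 7.72% of all genes, and the median log2 fold change was 0.00. Slc38a4, an amino acid transporter of the liver and placenta, had log2 ratios of -1.53, -1.13 and -1.23 in Lgr5-positive cells, against 0.76, 2.32 and 3.55 in Lgr5-negative cells. Its probe was well above background on 0 of the 3 Lgr5-positive arrays and on 3 of the 3 Lgr5-negative arrays. By group means, and with the bound used for Kcnq1, its level was at least 10.4-fold lower in Lgr5-positive cells. The pairs differed by -2.29, -3.45 and -4.77 in log2 ratio, a spread that the bound leaves out. The limma adjusted p was 0.085 for the groups alone and 0.0048 with the block, and as with Kcnq1 these do not count as evidence.

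Of 18 genes that set or keep imprints, 17 were tested and 0 passed in either fit. The shares over all genes were 0.612% for the groups alone and 7.72% with the block. In limma, 0 had an unadjusted p under 0.05 (8.2% of all genes). Trim28, the corepressor recruited by ZFP57, had log2 ratios of -0.85, -0.91 and -1.16 in Lgr5-positive cells and -1.23, -1.31 and -0.90 in Lgr5-negative cells. Uhrf1, which brings DNMT1 to replicating DNA, had log2 ratios of -3.10, -2.83 and -2.71 in Lgr5-positive cells and -2.28, -2.55 and -3.14 in Lgr5-negative cells. The groups overlapped for both. Zfp57, named after its values were seen, had log2 ratios of 2.41, -0.07 and 2.43 in Lgr5-positive cells and 2.46, -0.02 and 1.80 in Lgr5-negative cells, so that the arrays numbered 2 stood apart from the others in each group.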

How the data were processed

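The arrays were scanned with Agilent Feature Extraction, version 11.0 per the submitters' processing notes, and the deposited scanner files give spot intensity values in both channels, which were used here as spot medians with local background medians. The deposited scanner files also hold a processed ratio on the log10 scale, and the authors' deposited value table holds log2 ratios in which each probe's median over the 6 arrays is 0 (100% of probes, within 0.0001); both were used only as alternatives. In R 4.3.3 with limma 3.58.1, intensities were corrected with normexp (offset 50) and normalized by loess within arrays, with control and flagged spots at weight 0. A probe was kept if well above background in Cy5 on at least 3 of 6 arrays, and the brightest kept probe stood for a gene. Probes were named by RefSeq accession (21717 of 23173 matched). limma was fitted to 15680 genes with Benjamini-Hochberg adjustment and a threshold of 0.05, tested on simulated data. Replicates are separate samples per the labels, with no statement of separate animals, so p-values measure the spread between these samples. The number of arrays limits the precision. All 3 same-number correlations exceeded 0.1, so the numbers were taken as pairs.

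Members, lists and tests were chosen with earlier results of these data known. Values on every array are given for members past the threshold in either fit, members without overlap and the brightest of each cluster, and for up to 4 called genes, or else the 2 with the lowest p, of the imprinted and maintenance lists. Further markers were tested as lists, where 7.72% of all genes passed either way with the block. With the block, 3 of 8 pericyte markers were lower, 4 of 10 fibroblast markers lower and 1 higher, 1 of 9 leukocyte markers lower, 2 of 8 luminal progenitor and milk markers lower and 1 higher, 2 of 5 glial markers lower and 1 higher, and 0 of 4 adipocyte markers either way.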

Additional observations from a re-analysis of the deposited data

How the results depend on the processing

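The numbers of calls rest on how the replicates are treated. Over all genes 96 were called for the groups alone, 1210 with the replicate block (330 higher, 880 lower), 9 with median centring in place of loess, 44 when a probe had to be above background on all 6 arrays, 312 with array weights, and 0 to 371 when 1 array was left out, the highest without the Lgr5-negative array numbered 1. Among the 31 members the counts were 0 for the groups alone, 3 with the replicate block, 2 with array weights (Slc22a18 and Kcnq1) and 0 to 1 when 1 array was left out. Among the other imprinted genes they were 0, 2 with the replicate block, 1 with scanner ratios, 1 with the deposited table, 1 with array weights and 0 to 1 when 1 array was left out. Among the marker lists, where alternatives were chosen after seeing the data, they were 3, with 34 under the replicate block, 0 under median centring, 1 with scanner ratios, 1 with the deposited table, 5 with array weights and 0 to 7 when 1 array was left out. The 3 include Tie1 and the 34 include Tie1 and Tnfsf11, whose calls support nothing here. Among the members, Kcnq1 is in the counts of 3 and 2 and is the 1 called without the Lgr5-negative array numbered 1. Among the other imprinted genes, Slc38a4 is in the count of 2. The calls of Kcnq1 and Slc38a4 support nothing here either. The Lgr5 log2 fold change was 1.47 in both fits, with a limma adjusted p of 0.245 for the groups alone and 0.0021 with the block. Further alternatives with the block were chosen after seeing the data. The blocked count of members was 12 with median centring, all lower, where the median of all genes was -0.29 and 5790 genes were called, and 1 to 4 when a pair was left out, where the blocked count over all genes was 326 (2.08%) without pair 2, 854 (5.45%) without pair 3 and 1397 (8.91%) without pair 1. These member counts include Kcnq1, except without pair 2, and its call supports nothing there either. Slc22a18 was called in 10 of 10 blocked settings. Mirg was called in 6 of 10: it missed the threshold with median centring (0.26, limma adjusted p 0.136), scanner ratios (0.74, 0.053), the deposited table (0.053) and Cy5 alone (0.50, 0.075). Asb4 reversed to -0.83 with the mean of its probes (limma adjusted p 0.033), which takes in its second probe. The median over members stayed between -0.18, with median centring, and 0.03. A sign change without a call on either side occurred 54 times for single genes in the groups alone and 34 times with the block. The cause of the other changes was not tested. Signals near background limit several members: the probes of Igf2, Kcnq1 and Snrpn were well above background on 3 of 6 arrays, and those of Peg3 and Nnat on 4.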
